A study of Mus musculus with 12 samples.

Results

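The 3 untreated tumours of a mouse pancreatic ductal adenocarcinoma (PDAC) study are described here gene by gene, as the starting state against which the study set its treatments. They were chosen by their labels, and they are 3 of the 12 samples of the series. The study compared tumours of mice given anti-IL-1R1 antibody, agonistic CD40 antibody or both with tumours of mice given none, in 4 groups of 3. The treatment protocol has the antibodies injected into the peritoneum, and the labels name no vehicle or isotype antibody for the untreated group. All tumours grew under the skin, not in the pancreas. The sources used here name no tumour line, mouse strain, sex or age, nor do they state that the 3 samples came from 3 mice. The spread between them may therefore be technical in part.

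PDAC arises from pancreatic cells with a ductal character. Its tumours hold cancer cells within a dense matrix laid down by fibroblasts, with blood vessels and immune cells, among them many macrophages and usually few T cells. RNA from a whole tumour mixes all of these, so each level below is a sum over cell types.

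Levels are given in TPM, a gene's share of the transcripts counted in a sample. Its read count was divided by the gene length in the deposited table, and the quotients were scaled to the same fixed sum in each sample, so that levels can be compared between genes. Values are listed for untreated 1, 2 and 3 in that order, or as mean ± SD over the 3 samples (n = 3). The samples held 53.3, 35.4 and 37.6 M reads in genes. Of 29098 genes listed, 20098 had a read in every sample and 14250 reached 1 TPM in every sample, 12071 of them protein-coding. Across the 14250 genes, Pearson's r between log2(TPM + 1) values was 0.986, 0.983 and 0.982 for the 3 pairs, a description over genes, which are not independent replicates. No sample stood apart on this measure, but untreated 3 did so in B cell genes and in ribosomal RNA, and untreated 1 in genes of lymphatic vessels and muscle, and these values stand with the results they touch. No groups were compared and no test was run. Each statement that a sample is high or low describes that sample.

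The transcriptome was spread over many genes. In all, 415 genes held 50% of the summed mean TPM, and the 100 most abundant genes of a sample held 31.1 ± 0.978% of it. Levels of at least 10 TPM in every sample were found for 8597 genes, of at least 100 TPM for 1517 and of at least 1000 TPM for 111. Ribosomal protein genes took 10.8 to 12.7% of TPM and mitochondrially encoded genes 3.81 to 4.58%. Protein-coding genes together took 86.4 to 90.1%. The 18S ribosomal RNA gene Rn18s-rs5 was first in the order, at 40598, 28478 and 69295 TPM. Untreated 3 held the largest share of this RNA, 6.93% of its TPM beside 4.06 and 2.85% in untreated 1 and 2, and since TPM sum to a fixed total, the other genes of that sample share what is left. Genes annotated as ribosomal RNA took 1.67 to 4.10% of the reads in genes. These values describe the sequenced libraries and not the ribosomal RNA content of the tumours, and the cause of their spread was not tested.

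Behind ribosomal RNA and mt-Co1, a mitochondrially encoded subunit of cytochrome c oxidase at 16617 ± 1652 TPM, the third most abundant gene was Spp1. Spp1 (ENSMUSG00000029304, chromosome 5, 104582984 to 104588916, mm39) encodes osteopontin, a secreted matrix phosphoprotein made by macrophages and by carcinoma cells. It measured 9907, 13372 and 11772 TPM, from 277750, 247535 and 233127 reads, and its mean was the highest of any protein-coding gene of the nuclear genome. The next, the ribosomal protein gene Rplp1 at 11929, 10808 and 11089.9 TPM, stood above Spp1 in untreated 1, so the order of these neighbours lay within the spread. Eef1a1, a translation elongation factor at 8649.6, 9797 and 7774 TPM, came after them in every sample.

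Of the 30 most abundant genes, 11 encode ribosomal proteins, 3 are mitochondrially encoded, 1 is ribosomal RNA, 1 is a pseudogene and 14 are other protein-coding genes. The ribosomal protein genes were led by Rplp1 at 11276 ± 583 TPM and included Rps3a1, Rplp0, Rps2, Rps15, Rpl41, Rpl8, Rpl36, Rpl32 and Rpsa, the last at 2605 ± 414 TPM. Ribosomal protein genes have many processed copies in the genome, so the split of reads between them is uncertain. The other 2 mitochondrial genes were mt-Nd1 at 7874 ± 714 TPM and mt-Cytb at 5866 ± 824 TPM, both encoding parts of the respiratory chain. The pseudogene AY036118 lies over the ribosomal RNA locus and stood at 2707 ± 324 TPM.

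Beside Spp1 and Eef1a1, the protein-coding genes in the first 30 fall into a few kinds. Clu (ENSMUSG00000022037, chromosome 14, 66205932 to 66218996), which encodes the secreted chaperone clusterin, measured 3848, 5111 and 4012 TPM. Lgals1, the gene of the secreted lectin galectin-1, was the steadiest of them, at 4652, 5021 and 4942 TPM. The calcium-binding proteins S100a11 and S100a6 stood at 5333 ± 398 and 3244 ± 163 TPM. Genes of the actin system were Actb at 3783 ± 315 TPM and the actin-binding thymosins Tmsb4x at 3831 ± 407 and Tmsb10 at 3614 ± 252 TPM. Translation was represented by Eef2 at 4105 ± 555 TPM and Fau, whose product is cut to yield a ribosomal protein, at 3663 ± 252 TPM. Tpt1 had 5363 ± 548 TPM. Igfbp7, a secreted protein of the insulin-like growth factor system, had 2645 ± 225 TPM. B2m, the light chain of MHC class I, differed most among these genes, at 4635, 3246 and 2615 TPM, highest in untreated 1. The genomic span of B2m lies wholly inside that of Patl2, and strand use in counting is not known here, so its level is uncertain.

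**Figure D1:**
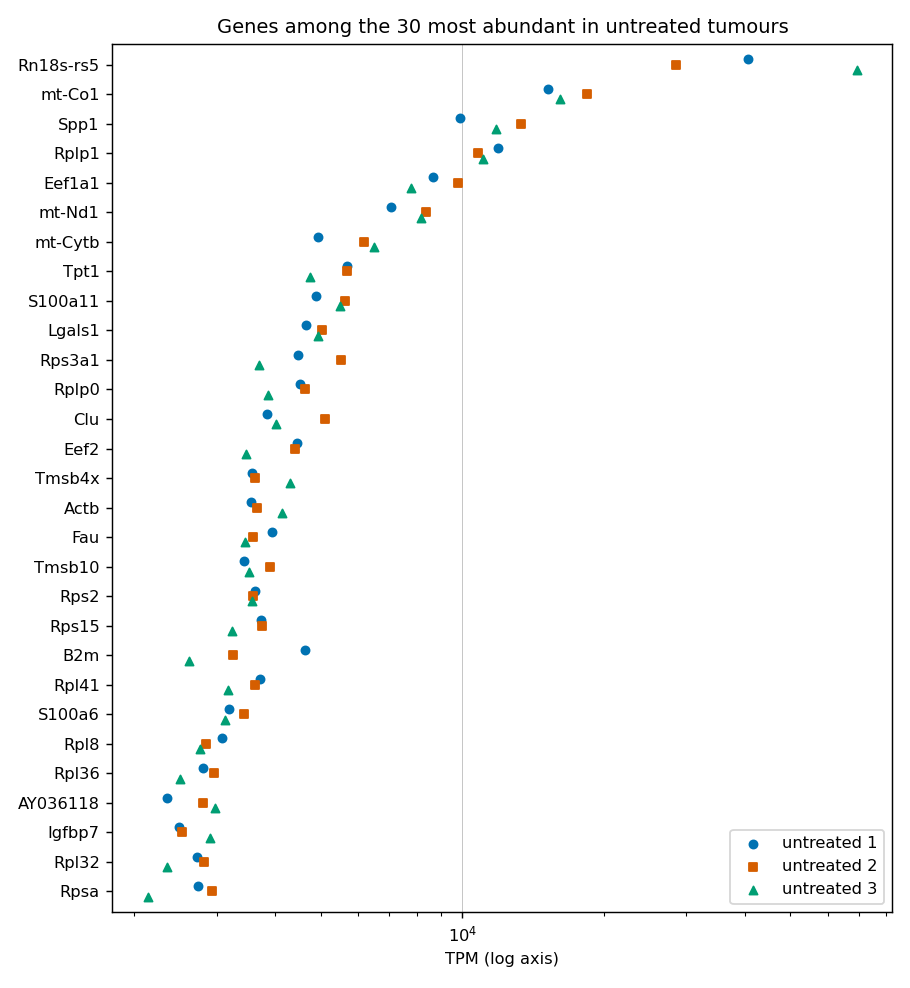
Genes among the 30 most abundant in untreated tumours, ordered by mean TPM. The x axis is TPM on a log scale and each symbol is 1 sample. Most genes have their 3 symbols close together, while Rn18s-rs5 spreads between 28478 and 69295 TPM and B2m between 2615 and 4635 TPM.

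The same genes filled the first places in each sample. In all 3 samples, 9 genes were among the first 10, 27 among the first 30 and 87 among the first 100. The choice of scale mattered more: only 14 of the first 30 genes by TPM were among the first 30 by CPM, which scales counts to the library total and ignores length. The median gene length was 1317.5 bases in the first 30 by TPM and 3317 in the first 30 by CPM.

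To place the tumours among known cell types, 40 lists with 574 different genes were read, 546 of them in the table. A summed level does not tell fewer cells of a type apart from less RNA per cell. Summed levels ran from 26063 ± 1839 TPM for housekeeping genes to 11.4 ± 1.16 TPM for genes of pancreatic acinar cells. Lists differ in length and can owe their sum to 1 gene, so leading genes are given with their values. Since the sources used here do not say whether counting used strand, the level of a gene whose span is shared with another gene is uncertain. This holds at 20% or more of the span for 54 of 590 genes on the lists and orders used here, among those named Spp1, Elf3, Lamb3, Fosl1, Cdkn2b, Car9, Dpt, Tnc, Ccn2, Timp1, Loxl2, Notch3, Tcf7, Foxp3, Igkc, H2-Eb1, Ciita, H2-Oa, Cd274, Myd88, Il1a, Pla2g2a, S100b and Ahsg, and others noted below.

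**Figure D2:**
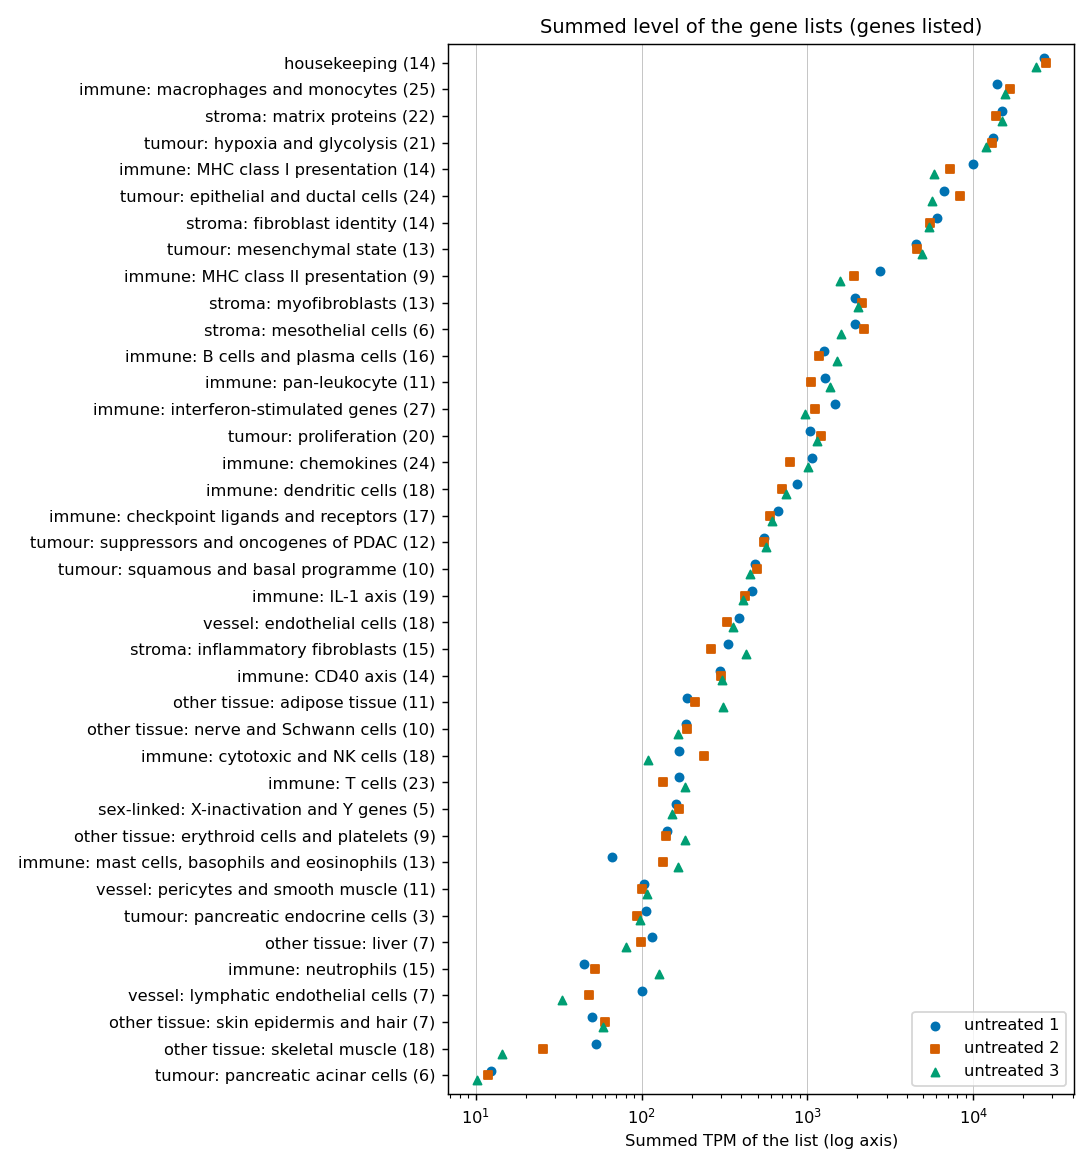
Summed TPM of the gene lists, with the number of listed genes in brackets. The x axis is a log scale and each symbol is 1 untreated sample. Housekeeping, macrophage, matrix, glycolysis, MHC class I, epithelial and fibroblast identity genes fill the upper end, with fibroblast identity genes at 5393 TPM or more in every sample, and acinar genes lie at 10.1 to 12.3 TPM.

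Keratins of simple epithelia were abundant. Krt8 (ENSMUSG00000049382, chromosome 15, 101905133 to 101912917) measured 2179.7, 2979 and 1953 TPM and stood 34th among all genes. Its partner Krt18 (ENSMUSG00000023043, chromosome 15, 101936615 to 101940462) measured 1579, 2234 and 1411 TPM, and Krt19 (ENSMUSG00000020911, chromosome 11, 100031636 to 100039491), the keratin of pancreatic ducts, 1591, 1827 and 1323 TPM. All 3 keratins were highest in untreated 2 and lowest in untreated 3. Cdh1, which encodes the epithelial adhesion molecule E-cadherin, followed at 333 ± 63.98 TPM. Of the 24 genes of epithelial and ductal cells, 17 reached 1 TPM in every sample and 13 reached 10 TPM.

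Other epithelial genes were scarce. Epcam (ENSMUSG00000045394, chromosome 17, 87943407 to 87958557), the gene of a surface molecule used to isolate carcinoma cells, had 18.3, 5.96 and 3.53 TPM, and its value in untreated 1 stood apart from the other two. Esrp1, a regulator of epithelial splicing, had 0.0109 ± 0.00973 TPM, and Grhl2, an epithelial transcription factor, had no read, which allows up to 0.0205 to 0.0310 TPM by counting error alone. Claudin genes of tight junctions were at 11.4 ± 3.12 TPM for Cldn3, 2.65 ± 0.739 TPM for Cldn4 and 0.485 ± 0.425 TPM for Cldn7. The trefoil factor genes Tff1 and Tff2, made by mucous epithelia, stood at 0.139 and 0.760 TPM in the mean, and each had samples without a read. High keratin and E-cadherin transcripts thus stood beside low levels of several further epithelial genes.

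Of the 21 epithelial genes with at least 20 reads over the samples, 17 were lowest in untreated 3 and 12 were highest in untreated 1. For reading such counts, 30.6% of all genes with a mean of at least 1 TPM were highest in untreated 1, 40.4% in untreated 2 and 29.0% in untreated 3, and 28.8% were lowest in untreated 1, 29.99% in untreated 2 and 41.2% in untreated 3. The epithelial transcription factor gene Elf3 measured 40.3, 36.5 and 16.8 TPM, highest in untreated 1 and lowest in untreated 3. Lgals4, an intestinal and ductal lectin gene, measured 199, 204 and 71.2 TPM and was likewise lowest in untreated 3. Agr2, a gene of mucin-secreting cells, had 3.55, 7.31 and 0.516 TPM.

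Transcription factor genes of the ductal pancreas were present in every sample. Pdx1 (ENSMUSG00000029644, chromosome 5, 147206769 to 147212658), required for pancreas development, measured 106, 93.8 and 97.1 TPM, although 26.5% of its span is shared with Plut, an antisense gene. Sox9, a factor of ductal cells, stood at 141, 128 and 146 TPM. Gata6, a factor of foregut endoderm, stood at 40.3 ± 4.14 TPM. Pdx1 made up 99.9% of the summed level of the list for endocrine cells, whose hormone genes Ins1, Ins2, Gcg, Sst and Ppy, with Neurod1 and Nkx2-2, were not listed in the table, and Chga and Chgb had 0.0569 and 0.0433 TPM in the mean. Acinar enzyme genes were low. Of 13, Prss1, Cela2a, Cela3b, Pnlip, Amy2a1, Cel and the acinar factor gene Ptf1a were not listed, and the most abundant were Cela1 at 7.56 ± 1.80 TPM and Prss2 at 3.10 ± 0.507 TPM. Cpa1 and Bhlha15 had 0.334 and 0.223 TPM in the mean. Set beside the label of a ductal tumour, ductal genes were present, and hormone genes of endocrine cells were not listed. Acinar enzyme genes were not listed or low, with 2 acinar genes at 1 TPM or more in every sample.

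Genes of the squamous or basal programme, seen in a part of PDAC, were present in part. Sprr1a, a gene of the cornified envelope, measured 221, 196 and 173 TPM. Itgb4, the beta 4 integrin of hemidesmosomes, measured 153, 152 and 162 TPM, and Lamb3, a chain of its ligand laminin-332, 63.4 ± 12.2 TPM. Trp63, the transcription factor that defines basal cells, was at 0.188 ± 0.141 TPM. Krt17 and Krt6a stood at 0.0765 and 0.0245 TPM in the mean, and Krt5 and Dsg3 were not listed. Krt14, a further basal keratin gene, stood at 12.5 ± 2.02 TPM. Sprr1a alone made up 41.3% of the list's sum.

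Genes of the mesenchymal state were high. All 13 reached 10 TPM in every sample. Vim (ENSMUSG00000026728, chromosome 2, 13578738 to 13587637), the gene of the filament protein vimentin, measured 2243, 2431 and 2236 TPM, and Fn1, which encodes the matrix protein fibronectin, 1547, 1444 and 1913 TPM. Fibroblasts, endothelial cells and leukocytes also make vimentin, so this list does not mark tumour cells alone. Hmga2, an oncofetal chromatin protein gene, stood at 171, 170.2 and 224 TPM, highest in untreated 3, and Tgfbi, induced by TGF-beta, at 179.6 ± 2.45 TPM. The transcription factor genes Twist1, Snai1, Snai2, Zeb1 and Zeb2 stood at 134 ± 5.22, 45.8 ± 9.47, 22.8 ± 1.80, 18.5 ± 2.20 and 13.2 ± 0.627 TPM, the last being the lowest of the list.

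Genes that MAP kinase signalling is known to induce were also measured. The cell cycle gene Ccnd1 had 283, 241 and 313 TPM, highest in untreated 3 and lowest in untreated 2. Dusp6 and Dusp4, which encode phosphatases that act back on MAP kinases, had 246 ± 13.3 and 197 ± 30.9 TPM. Hbegf, the gene of a growth factor of the EGF family, had 144 ± 11.98 TPM, and Fosl1, an AP-1 subunit, 12.4 ± 1.89 TPM.

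Genes that are often mutated in PDAC were transcribed. Smad4, a mediator of TGF-beta signalling, measured 180.1, 168 and 167 TPM, Trp53 89.8, 104 and 108 TPM and Tgfbr2, a TGF-beta receptor, 80.3, 78.2 and 72.1 TPM. Cdkn2b, a cell cycle inhibitor, had 50.1 ± 2.80 TPM, its neighbour Cdkn2a 5.16 ± 1.14 TPM, and Brca2, a DNA repair gene, was lowest at 3.70 ± 0.473 TPM. Read counts per gene say nothing of the sequence of these transcripts.

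Proliferation genes were transcribed in all samples, with 20 of 20 at 1 TPM or more. Stmn1, a regulator of microtubules, led at 168, 189.9 and 179.8 TPM, with the replication clamp gene Pcna at 127 ± 14.3 TPM, the mitotic cyclin gene Ccnb2 at 98.2 ± 7.69 TPM and Rrm2, which supplies deoxynucleotides, at 96.9 ± 9.97 TPM. The lowest was Bub1, a spindle checkpoint gene, at 10.3 ± 1.20 TPM. Mki67, the gene of the Ki-67 antigen, measured 22.9, 34.6 and 33.9 TPM. Of the 20 genes, 16 were lowest in untreated 1, whose summed level was 1042 TPM beside 1213 and 1135 TPM in the other samples.

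Glycolysis genes were among the most abundant in the tumours. Ldha, the gene of lactate dehydrogenase A, measured 1874, 2007 and 1629 TPM, Pkm, of pyruvate kinase, 1684, 1820.1 and 1458 TPM, and Eno1, of enolase, 1459.7, 1461 and 1253 TPM. Aldoa stood at 1603 ± 90.3 TPM, although 55.9% of its span is shared with another gene. The list held 21 genes, all at 10 TPM or more in every sample, and the lowest was Pfkp at 31.01 ± 3.60 TPM. Genes that HIF induces under low oxygen were present, among them the glucose transporter gene Slc2a1 at 318 ± 29.5 TPM, Vegfa, the vascular growth factor, at 255, 223 and 265 TPM, and Car9, a carbonic anhydrase, at 228, 162 and 146 TPM. Gapdh (ENSMUSG00000057666, chromosome 6, 125138678 to 125143430), usually as abundant as its neighbours in the pathway, was listed at 69.1, 65.7 and 142 TPM, far below them and higher in untreated 3. The table gives Gapdh a length of 4133 bases, and the sources used here do not define these lengths. Gapdh was also low before length was applied, with 4857, 3052 and 7064 reads beside 133571, 88289 and 80970 for Eno1. The cause of its low level was not tested.

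Matrix genes formed one of the highest lists, with sums of 14862, 13785 and 14934 TPM over 22 genes, all at 10 TPM or more in every sample. Col3a1 (ENSMUSG00000026043, chromosome 1, 45350698 to 45388866), the gene of collagen III, measured 2539, 2221 and 2175 TPM. Sparc, a collagen-binding glycoprotein gene, measured 2011, 1933 and 1905 TPM and Col1a1, of collagen I, 1751, 1561 and 1694 TPM. These 3 varied little between samples. The lowest member, Vcan, a large proteoglycan gene, had 22.5 ± 2.78 TPM. Crosslinking enzyme genes were Lox at 79.6 ± 15.3 TPM and Loxl2 at 138 ± 16.2 TPM. Timp1, an inhibitor of matrix proteases, stood at 383, 354 and 555 TPM, highest in untreated 3.

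Fibroblast identity genes summed to 6012, 5493 and 5393 TPM, led by the collagens Col3a1, Col1a1 and Col1a2. Dpt, which encodes the matrix protein dermatopontin, measured 261, 305 and 188 TPM. Pdgfrb, a growth factor receptor of fibroblasts and pericytes, was level at 190.4, 185 and 188 TPM, while its relative Pdgfra stood at 9.72 ± 0.561 TPM. Fap, a protease of activated fibroblasts, was at 5.67, 6.75 and 9.39 TPM, and Pi16 and Dpp4, genes of a universal fibroblast state, at 9.62 ± 2.10 and 0.982 ± 0.174 TPM.

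Of 13 listed myofibroblast genes, 12 reached 10 TPM in every sample. The secreted matrix genes Thbs1, Tnc and Ccn2 led at 392 ± 15.9, 302 ± 42.7 and 292 ± 22.4 TPM, followed by the contractile gene Tpm1 at 219 ± 18.5 TPM. Acta2, the gene of smooth muscle actin, measured 101, 129.6 and 94.7 TPM, highest in untreated 2. Tagln (ENSMUSG00000032085, chromosome 9, 45840917 to 45847356), another contractile gene, was listed at 0.621, 0.582 and 0.586 TPM, from 21, 13 and 14 reads. It overlaps 2 other genes, 1 of which covers 56.3% of its span, and its low level is uncertain for this reason. Ctgf was not listed under that symbol, and the same gene stands in the list as Ccn2.

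Genes of inflammatory fibroblasts were lower, with sums of 330.2, 264 and 425 TPM. Ly6c1, also a gene of endothelial cells, led at 147, 83.3 and 95.7 TPM. Il33, an alarmin of the IL-1 family, measured 51.8, 46.9 and 62.5 TPM and Ccl2, a monocyte attractant, 44.99, 41.8 and 44.5 TPM. Cfd, which encodes complement factor D and is also a fat cell gene, differed most, at 4.59, 24.9 and 109 TPM, and stood apart in untreated 3. Il6, an inflammatory cytokine, had 0.628 ± 0.216 TPM and Pla2g2a, a phospholipase, 0.0424 TPM in the mean. Cxcl1, a neutrophil attractant that fibroblasts secrete under IL-1, had 0.157, 0.380 and 2.09 TPM.

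Mesothelial genes other than those that duct or tumour cells also use were scarce. Krt19 made up 82.8% of their sum and is shared with duct cells. Msln, the mesothelin gene that PDAC cells also transcribe, had 346, 353 and 271 TPM. Bnc1 stood at 5.23 ± 0.929 TPM, Wt1 and Upk3b at 0.206 and 0.157 TPM in the mean, Lrrn4 had no read, with an upper limit of 0.0475 to 0.0719 TPM, and Calb2 was not listed.

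**Figure D3:**
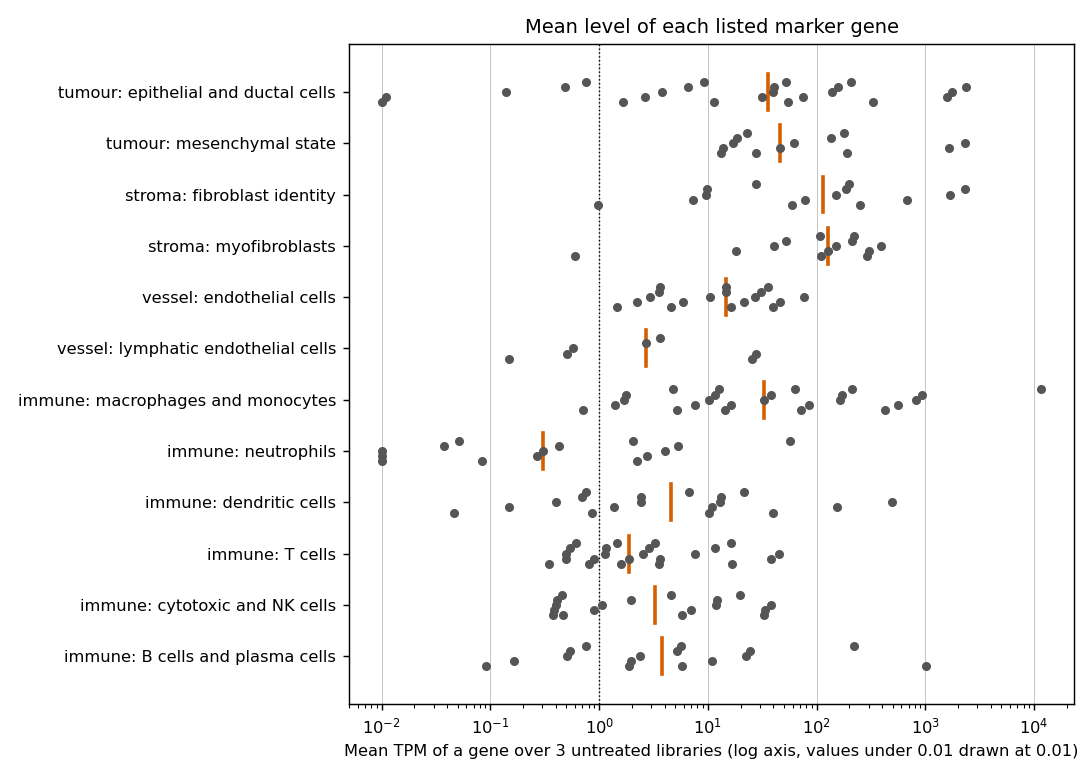
Mean TPM of each listed gene of 12 lists over the 3 untreated samples. The x axis is a log scale with values under 0.01 drawn at 0.01, each point is a gene, the orange bar is the median of the list and the dotted line marks 1 TPM. Medians of the fibroblast identity and myofibroblast lists lie above 100 TPM, and those of T cell, cytotoxic, dendritic and B cell lists lie under 5 TPM.

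Blood vessel genes were present at low to middling levels in every sample. All 18 endothelial genes reached 1 TPM in every sample, and they summed to 385, 328 and 357 TPM. Plvap, a gene of fenestrated vessels, led at 80.1, 72.9 and 74.2 TPM. Cldn5, a tight junction gene of endothelium, measured 62.8, 42.4 and 32.8 TPM. Mcam, an adhesion gene that pericytes share, stood at 39.9 ± 1.72 TPM, Flt1, a receptor of VEGF, at 35.5 ± 5.38 TPM, and Pecam1, which encodes CD31, at 18.6, 15.4 and 14.5 TPM. Kdr, the main signalling receptor of VEGF, was at 3.58 ± 0.153 TPM and Tek, the angiopoietin receptor, was lowest at 1.47 ± 0.102 TPM.

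Pericyte and smooth muscle genes summed to 103, 101 and 107 TPM, of which Mcam was 38.5%. Notch3, a pericyte receptor gene, had 15.9 ± 3.68 TPM, Actg2, a smooth muscle actin, 11.6 ± 4.58 TPM, and Rgs5, a pericyte gene, 8.48 ± 0.469 TPM. Myh11, which defines mature smooth muscle, was lowest at 0.445 ± 0.214 TPM.

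Lymphatic endothelial genes differed between the samples. Prox1, which defines the lineage, had 1.11, 0.318 and 0.0893 TPM, from 159, 30 and 9 reads. Lyve1, a hyaluronan receptor gene, had 6.08, 1.01 and 0.969 TPM and Flt4, the receptor of VEGF-C, 5.66, 2.65 and 2.46 TPM. All 7 genes were highest in untreated 1. Ccl21a, a chemokine gene of lymphatic vessels and lymphoid tissue, had 57.3, 16.3 and 2.68 TPM, but near-identical copies of it share reads, so its level is uncertain. Mmrn1 stood at 1.54, 0.121 and 0.0425 TPM, Reln, the lowest, at 0.324, 0.0563 and 0.0596 TPM, and Pdpn, which fibroblasts share, was even at 28.99, 27.8 and 26.7 TPM.

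Among immune lists, macrophage genes stood highest at 13952, 16558 and 15528 TPM, of which Spp1 was 76.1%. Without Spp1 the sums were 4045, 3186 and 3756 TPM, below the sums of MHC class I genes at 9909.6, 7282 and 5788 TPM. The first place among immune lists thus rested on Spp1, and by the median member the macrophage list stood 14th of the 40 lists. Lyz2, which encodes lysozyme, measured 1063, 836 and 878 TPM and Apoe, of lipid transport, 947, 736 and 794 TPM. C1qa (ENSMUSG00000036887, chromosome 4, 136623228 to 136626114), a chain of complement C1q made by tissue macrophages, measured 606, 425 and 650.2 TPM. The 3 C1q chains together had 1295, 939 and 1364 TPM, lowest in untreated 2. The lineage receptor gene Csf1r stood at 38.1 ± 5.90 TPM and Adgre1, which encodes F4/80, at 16.5 ± 2.99 TPM. Arg1, an arginase gene, measured 155, 167 and 188 TPM beside 5.64, 2.67 and 7.22 TPM of Nos2, the gene of inducible nitric oxide synthase. Trem2, a lipid receptor gene, had 12.6 ± 2.85 TPM, Ccr2, of recruited monocytes, 7.56 ± 0.706 TPM, and Chil3 was lowest at 0.717 ± 0.577 TPM. Of the 25 genes, 16 were lowest in untreated 2.

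Pan-leukocyte genes had the same sample lowest. All 11 were lowest in untreated 2, and 10 were highest in untreated 3. Cyba, an oxidase subunit, led at 415, 393 and 438 TPM, with Cd53 at 229 ± 49.6 TPM, the adaptor gene Tyrobp at 197, 147 and 174 TPM and its relative Fcer1g at 168, 111 and 171 TPM. Ptprc, which encodes CD45 and defines leukocytes, was lowest at 3.83, 2.79 and 4.52 TPM.

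Neutrophil genes were scarce. Mmp9, a matrix protease gene that macrophages and tumour cells also make, was 76.6% of the sum, at 26.1, 40.9 and 105 TPM. Il1r2, the decoy receptor of IL-1, stood at 5.28 ± 1.30 TPM and Csf3r, the receptor of G-CSF, at 4.00 ± 1.38 TPM. S100a8 and S100a9, the most abundant transcripts of mature neutrophils, together had 6.68, 3.37 and 4.87 TPM. Mpo, Elane and Retnlg had no read in any sample, with upper limits of 0.0515 to 0.0780, 0.179 to 0.271 and 0.297 to 0.450 TPM, and Ngp was not listed. Cxcr2, the neutrophil chemokine receptor gene, had 0.289, 0 and 0.519 TPM.

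Dendritic cell genes were led by genes that other cells share. Bst2, an interferon-induced membrane gene, was 63.7% of the sum, at 573, 459.5 and 435 TPM, followed by the actin-bundling gene Fscn1 at 155 ± 27.04 TPM, Sirpa at 39.4 ± 7.398 TPM and Tcf4 at 21.5 ± 0.414 TPM. Markers restricted to the lineage were low. Flt3, the growth factor receptor of dendritic cells, had 0.697 ± 0.126 TPM. Xcr1 and Clec9a, of the cross-presenting subset, had 0.397 ± 0.138 and 0.757 ± 0.115 TPM. Ccr7, of migratory dendritic cells, had 10.9 ± 0.186 TPM, and Siglech, of plasmacytoid cells, was lowest with reads in untreated 1 alone.

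T cell genes summed to 169, 135 and 183 TPM, and the 3 CD3 chains Cd3d, Cd3e and Cd3g to 7.88, 1.71 and 5.20 TPM. Untreated 2 was lowest in the CD3 sum. Trbc1, a T cell receptor constant gene, was the most abundant at 24.5, 45.4 and 65.1 TPM, followed by Tcf7, a transcription factor that other cells also make, at 40.5, 32.97 and 40.4 TPM. Tigit, an inhibitory receptor gene, measured 19.9, 14.6 and 15.03 TPM and Trac, the alpha chain constant gene, 19.05, 13.1 and 16.5 TPM. Cd8a had 5.51, 2.42 and 2.77 TPM, Cd4 1.34, 0.994 and 1.11 TPM and Foxp3, of regulatory T cells, 0.450, 0.681 and 0.345 TPM. The lowest was Cd247, the zeta chain gene, at 0.347 ± 0.141 TPM. Of the 23 genes, 18 were highest in untreated 1. Trbc1 was not one of them, being highest in untreated 3.

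Cytotoxic and NK cell genes were headed by granzymes of 1 gene cluster. Gzmc measured 30.3, 63.8 and 20.8 TPM, Gzme 16.6, 45.7 and 38.8 TPM, Gzmd 28.2, 55.5 and 13.9 TPM and Gzmf 19.1, 33.5 and 6.16 TPM. All 4 were highest in untreated 2, the sample lowest in CD3 chains, while 13 of the 18 genes of the list were highest in untreated 1. These granzyme genes are close paralogs, and no source says how reads that fit several of them were counted, so their levels are uncertain. Gzmb, the main granzyme of killer cells, had 15.1, 11.7 and 8.64 TPM, Prf1, which encodes perforin, 8.05, 7.06 and 2.16 TPM, and Nkg7, of cytotoxic granules, 21.5, 6.53 and 8.38 TPM. Ncr1, an NK cell receptor gene, had 0.267, 0.347 and 0.540 TPM, and the lowest member was Fasl at 0.373 ± 0.416 TPM.

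B cell genes separated 1 sample from the other two. The list's sum of 1254, 1169.7 and 1515 TPM came largely from Sdc1, Xbp1 and Prdm1, which epithelial and secretory cells also use and which stood at 999, 924 and 1104 TPM, 223, 209 and 231 TPM and 19.3, 23.4 and 24.1 TPM. Without these, the other 13 genes summed to 11.6 and 13.5 TPM in untreated 1 and 2, and to 155 TPM in untreated 3. Cd79a, a chain of the B cell receptor, had 0, 0.367 and 17.1 TPM, from 0, 6 and 300 reads. Igkc, the kappa light chain constant gene, had 1.77, 5.36 and 65.9 TPM. Pax5, which defines the lineage, had reads in untreated 3 alone. Of plasma cell genes, Jchain stood at 0.140, 0.354 and 0 TPM and Mzb1, the lowest of the list, at 0, 0 and 0.274 TPM. Of the 14 genes with at least 20 reads, 13 were highest in untreated 3.

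Of mast cells, basophils and eosinophils, Mcpt8 led at 32.04, 75.4 and 88.2 TPM and Mcpt4 followed at 14.4, 38.2 and 43.9 TPM, both protease genes and both lowest in untreated 1. The tryptase gene Tpsb2 had 10.8 ± 2.18 TPM and the chymase gene Cma1 6.68 ± 2.60 TPM. Ms4a2, a chain of the IgE receptor, was at 0.120 TPM in the mean. Siglecf, of eosinophils, had 0.260 ± 0.158 TPM, Prg2 had no read, with a limit of 0.210 to 0.319 TPM, and Epx was not listed.

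Antigen presentation genes were high, and they set untreated 1 above the others. MHC class I presents peptides from inside the cell on nearly all cells, and class II presents ingested antigen on antigen-presenting cells under the transcription factor CIITA. Promoters of class II genes are known for a conserved set of boxes, of which the Y box holds an inverted CCAAT sequence. Below are the 120 bases before the start of the 3 class II genes of the list whose RefSeq promoter in GRCm38.p6 holds CTGATTGG, the letters of the Y box, in capitals on the gene's strand. These genes were picked for holding the letters, so their sharing them is no result. The build of the sequences differs from mm39 of the deposited tables.
H2-Aa, chr17:34287824-34287943, minus strand: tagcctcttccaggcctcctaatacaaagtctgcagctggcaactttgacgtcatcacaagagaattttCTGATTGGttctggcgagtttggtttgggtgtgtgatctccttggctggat
H2-Eb1, chr17:34305747-34305866, plus strand: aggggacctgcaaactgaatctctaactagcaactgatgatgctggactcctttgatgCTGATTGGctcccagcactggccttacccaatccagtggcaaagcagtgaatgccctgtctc
H2-Oa, chr17:34092259-34092378, plus strand: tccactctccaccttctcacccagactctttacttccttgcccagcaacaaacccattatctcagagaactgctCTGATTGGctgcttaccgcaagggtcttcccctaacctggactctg
The motif begins 51, 62 and 46 bases before the start. Of the 9 class II genes, 6 were in the promoter table and 3 of those held the motif on either strand, all on the gene's own strand. Of 32851 mouse promoters in the table, counted over 250 bases before to 50 after the start, 4.10% held it on either strand. A match is a run of letters and no evidence of binding.

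Of these 3 genes, H2-Aa, a class II alpha chain gene, measured 284, 189.6 and 151 TPM and H2-Eb1, a beta chain gene, 411, 311 and 221 TPM, both highest in untreated 1. H2-Oa, a modulator of peptide loading, was low at 2.30, 1.01 and 3.02 TPM and highest in untreated 3. Cd74 (ENSMUSG00000024610, chromosome 18, 60936920 to 60945724), the invariant chain of class II, measured 1093, 763 and 581 TPM and was the most abundant class II gene. The protease gene Ctss stood at 452, 354 and 358 TPM, H2-Ab1 at 360.00, 228 and 194 TPM and Ciita at 7.29, 4.25 and 3.40 TPM. Of the 9 genes, 8 were highest in untreated 1 and 7 lowest in untreated 3, and their sums were 2729, 1920.3 and 1569 TPM. H2-Oa was the exception.

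Class I genes had the same order of samples. H2-D1 and H2-K1, the classical heavy chain genes, measured 1546, 1101 and 691 TPM and 1623, 945 and 664 TPM. The peptide transporter gene Tap1 stood at 80.2, 35.4 and 29.6 TPM and the immunoproteasome gene Psmb9 at 47.5, 23.1 and 16.8 TPM. Calr, a chaperone gene of the endoplasmic reticulum, was even at 700.4, 751 and 671 TPM, and Nlrc5, the class I transactivator, was lowest at 15.6, 11.8 and 6.74 TPM. Of 14 genes, 12 were highest in untreated 1 and 10 lowest in untreated 3, with sums of 9909.6, 7282 and 5788 TPM. The heavy chain genes are similar in sequence, and reads can be shared between them and with other class I genes.

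Interferon-stimulated genes leaned the same way. Of 27, 16 were highest in untreated 1, 10 in untreated 2 and 1 in untreated 3, and 24 were lowest in untreated 3. Behind Bst2, Gbp2, a GTPase induced by interferon gamma, measured 275, 149 and 139 TPM and Cxcl9, a chemokine induced by it, 122, 70.02 and 44.7 TPM. Isg15, a ubiquitin-like protein gene of the type I response, was higher in 2 samples, at 73.2, 75.5 and 50.3 TPM. Mx2 was lowest at 1.45 ± 0.550 TPM. Ifng itself was low at 2.27, 1.99 and 1.61 TPM. In untreated 1 these lists moved with several others: 18 of 23 T cell genes, 13 of 18 cytotoxic genes, 7 of 7 lymphatic genes and 14 of 15 skeletal muscle genes were highest there. Their part in the MHC levels was not tested.

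**Figure D4:**
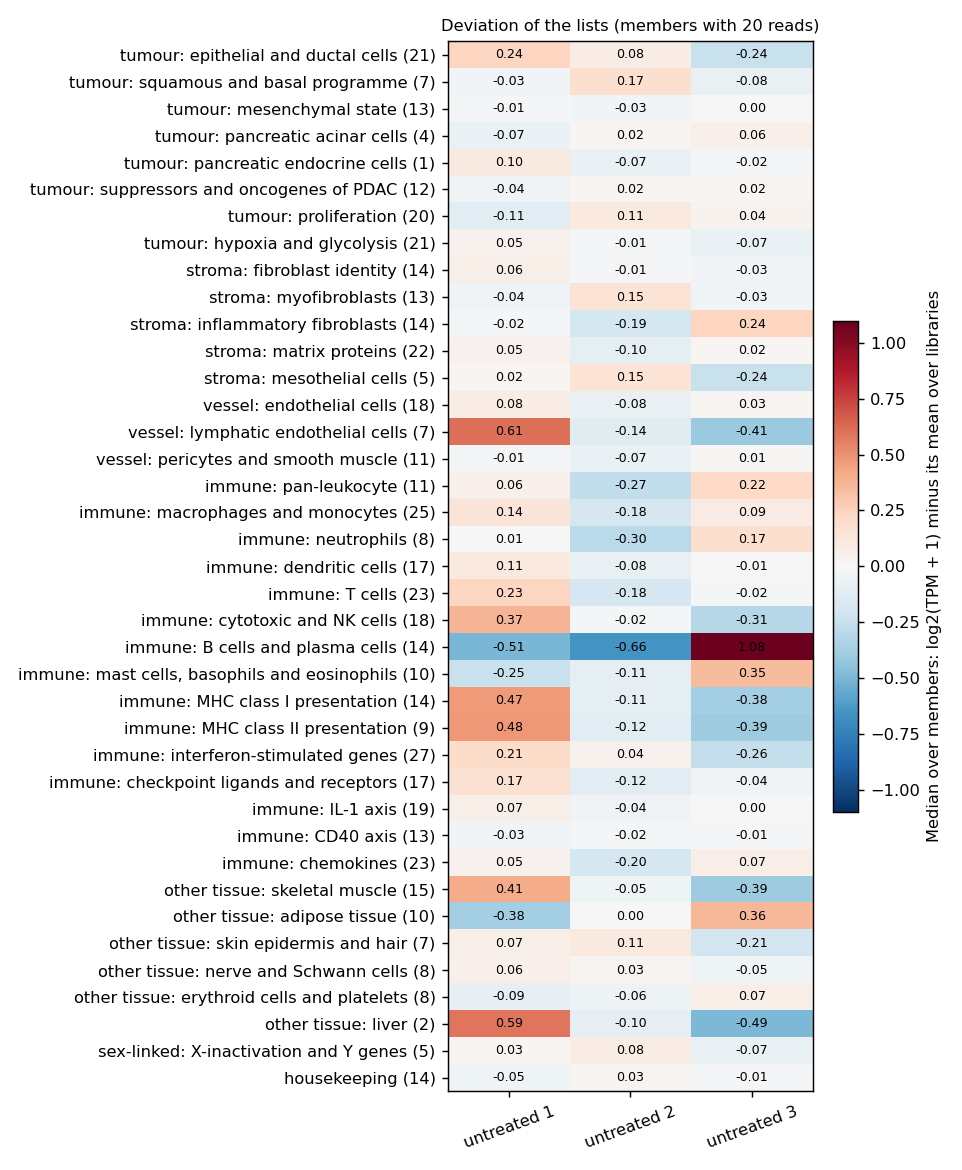
Deviation of the lists in each untreated sample: the median over members of log2(TPM + 1) minus the gene's mean over the samples, for members with at least 20 reads (number in brackets). Columns are samples, and red is above and blue below the mean. B cell genes in untreated 3 are the strongest field at 1.08, and MHC class I and class II genes stand at 0.47 and 0.48 in untreated 1 and at -0.38 and -0.39 in untreated 3.

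Checkpoint genes were led by ligands that many cells make. Cd276, which encodes B7-H3, measured 130.4, 141 and 159 TPM, Lgals9, of galectin-9, 160.3, 145 and 124 TPM, and Cd47, an inhibitor of phagocytosis, 141, 129 and 129 TPM. Cd274, which encodes PD-L1, stood at 19.3, 12.6 and 17.7 TPM and its receptor gene Pdcd1 at 5.20, 1.84 and 1.64 TPM. Ctla4 was the lowest of the 17 genes at 1.46 ± 0.587 TPM.

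The IL-1 axis is the target of one of the study's antibodies. IL-1 alpha and IL-1 beta bind IL-1R1 with its partner IL1RAP, the receptor antagonist and the decoy receptor oppose them, and MYD88 and the IRAK kinases carry the signal. Il1r1 (ENSMUSG00000026072, chromosome 1, 40264240 to 40356417) was even, at 32.2, 33.7 and 32.8 TPM, and Il1rap stood at 2.79 ± 0.290 TPM. The ligand gene Il1b measured 19.1, 19.9 and 21.1 TPM. Il1a measured 0.506, 0.767 and 2.74 TPM, highest in untreated 3. Il1rn, the gene of the receptor antagonist, exceeded Il1b in every sample, at 67.7, 53.4 and 38.8 TPM, and Il1r2, the decoy, had 5.05, 4.11 and 6.67 TPM. Other ligands of the family were Il33 at 53.7 ± 7.96 and Il18 at 7.12 ± 1.91 TPM, and Il1rl1, the receptor of IL-33, stood at 4.45 ± 1.27 TPM.

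Signalling genes of the axis were Myd88 at 41.9 ± 2.83 TPM, Irak1 at 60.6 ± 2.09, Irak2 at 28.4 ± 2.32, Irak4 at 11.7 ± 2.25, the inhibitory Irak3 at 5.62 ± 0.296 and Traf6 at 12.004 ± 0.359 TPM. Of the inflammasome, which matures IL-1 beta, the sensor gene Nlrp3 had 2.34 ± 0.710 TPM, the adaptor gene Pycard 2.54 ± 0.670 TPM, Casp1 5.27 ± 0.984 TPM and the pore gene Gsdmd 78.4 ± 13.2 TPM, the highest of the 19. Receptor, ligand and adaptor transcripts were thus all present, with 18 of 19 genes at 1 TPM or more in every sample.

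CD40, the target of the other antibody, activates antigen-presenting cells when CD40 ligand of T cells engages it, through TRAF adaptors and NF-kappaB. Cd40 (ENSMUSG00000017652, chromosome 2, 164897547 to 164914868) was low, at 4.75, 3.79 and 4.18 TPM, and Cd40lg was nearer to 0, at 0.188, 0 and 0 TPM. Of the adaptor genes, Traf2 and Traf3 stood at 29.1 ± 2.73 and 25.8 ± 2.39 TPM, Traf1 and Traf5 at 6.01 ± 1.92 and 6.85 ± 0.215 TPM, and Traf6 is given above. Birc2 and Birc3, which encode ubiquitin ligases of the complex, had 18.7 ± 1.55 and 7.63 ± 0.262 TPM. In the noncanonical branch the kinase genes Map3k14 and Chuk stood at 15.2 ± 1.54 and 34.7 ± 1.09 TPM and the NF-kappaB genes Nfkb2 and Relb at 87.1 ± 7.66 and 41.1 ± 2.81 TPM. Tnfaip3, a feedback inhibitor, had 13.05 ± 0.728 TPM. The intracellular genes were thus more abundant than the receptor, and the summed levels of 298, 301 and 306 TPM were the most even of the immune lists by the ratio of the highest to the lowest sum.

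Chemokine genes were led by attractants of monocytes and lymphocytes. Ccl8 measured 167, 101 and 140.2 TPM, Cxcl14 106, 102 and 195 TPM, Pf4, made by platelets and macrophages, 93.5, 86.9 and 115 TPM, and Cxcl9 is given above. Ccl5, a product of T cells and NK cells among others, had 61.5, 18.1 and 25.1 TPM, highest in untreated 1. Neutrophil attractants were low, with Cxcl5 at 13.8 ± 1.93 TPM, Cxcl2 at 2.91 ± 2.10 TPM, Cxcl3 at 1.31 ± 0.693 TPM and Cxcl1 as above. Ccl20, the lowest of 24, had reads in 1 sample, at 0.0689 TPM in the mean. Of the 23 genes with at least 20 reads, 15 were lowest in untreated 2.

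Genes of tissues that lie near a tumour under the skin were low. Skeletal muscle genes summed to 53.4, 25.3 and 14.3 TPM, and 14 of 15 with at least 20 reads were highest in untreated 1. Acta1, of skeletal actin, had 16.1, 3.07 and 0.650 TPM, Tnni2 9.78, 9.40 and 6.06 TPM, Des 7.08, 3.23 and 2.66 TPM and Mylpf 6.09, 1.76 and 2.59 TPM. Myh2 had no read, with a limit of 0.0247 to 0.0374 TPM, and Ckm, muscle creatine kinase, was lowest at 0.0594 TPM in the mean.

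Of 10 fat genes with at least 20 reads, 6 were highest in untreated 3, 3 in untreated 1 and 1 in untreated 2. Cfd, given above, is one of the list. Adipoq, which defines fat cells, had 0.426, 1.16 and 9.70 TPM and Plin1, of lipid droplets, 0.0885, 0.191 and 0.555 TPM. Scd1, a fatty acid desaturase gene of many cells, was even at 126, 124 and 124 TPM, and Pparg stood at 32.4 ± 3.33 TPM, Car3 at 6.59, 8.73 and 15.98 TPM. Lep was lowest at 0.0425 TPM in the mean and Ucp1 was not listed.

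Skin genes were low, with Dsp, a desmosome gene, at 14.98 ± 3.28 TPM, Krt79 at 6.91, 13.9 and 21.4 TPM, Lor at 8.51 ± 1.22 TPM and Ivl lowest at 0.297 TPM in the mean. Krt1, Krt5, Krt25, Flg and Krtdap were not listed. Nerve and Schwann cell genes were led by genes that tumours can share, Ncam1 at 48.2 ± 7.35 TPM, Nes at 47.04 ± 6.73 TPM, S100b at 39.8 ± 7.30 TPM and Pmp22 at 29.98 ± 6.77 TPM. Sox10, which defines Schwann cells, had no read, with a limit of 0.0578 to 0.0875 TPM, and Gfap stood at 0.0575 TPM in the mean. Haemoglobin genes were low, Hbb-bs at 18.6, 24.8 and 32.3 TPM, Hba-a1 at 18.5, 18.5 and 26.95 TPM and Hba-a2 at 4.53 ± 1.04 TPM, with near-identical copies. Gp9, of platelets, was lowest at 0.156 TPM, and Slc4a1 was not listed. Of liver genes, Trf, of transferrin, was 97.0% of the sum at 110.1, 95.8 and 78.7 TPM, Ttr stood at 4.46, 1.43 and 0.702 TPM, Apoa2 at 0.685 TPM, Ahsg at 0.0494 TPM and Alb, albumin, at 0.0202 TPM in the mean. Apoa1 and Serpina1a had no read, with limits of 0.143 to 0.216 and 0.0963 to 0.146 TPM, and Fgb was not listed.

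Y chromosome genes had reads in all samples. Ddx3y (ENSMUSG00000069045, chromosome Y, 1260771 to 1286629) measured 88.7, 88.2 and 84.5 TPM, Eif2s3y 53.3, 55.8 and 47.7 TPM, Uty 11.9, 13.4 and 12.6 TPM and Kdm5d 7.64, 10.2 and 7.398 TPM. Xist (ENSMUSG00000086503, chromosome X, 102503972 to 102526860), the RNA that silences an X chromosome in female cells, had 28, 17 and 2 reads, or 0.0917, 0.0843 and 0.00927 TPM. All 3 samples thus had Y gene reads at like levels and Xist near 0, and the share of host and tumour cells in these reads was not tested.

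Housekeeping genes other than Gapdh, B2m and Ppia had a CV between 2.33% for Hprt and 11.97% for Sdha. Gapdh had a CV of 46.8% and B2m of 29.5%, so the list as a whole was not even between samples. Behind Eef1a1, Rplp0, Actb and B2m, Hsp90ab1 stood at 2189.9, 2509 and 2025 TPM and Hprt at 345, 345 and 331 TPM, and Tbp, the lowest, at 6.11, 6.62 and 6.49 TPM.

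Long noncoding RNA genes took 0.970 to 1.04% of TPM, with 847 genes at 1 TPM or more in every sample. Malat1, a nuclear RNA, was first and steady, at 467, 452 and 442 TPM. The next 9 in order were ENSMUSG00000120992 at 263 ± 4.00 TPM, Gm10076, Snhg8, ENSMUSG00000121141, ENSMUSG00000120849, 2410006H16Rik, ENSMUSG00000121092, Gas5 and Norad, the last at 140.4 ± 6.24 TPM. Snhg8 and Gas5, hosts of small nucleolar RNAs, stood at 206 ± 11.2 and 159.96 ± 19.5 TPM, and Norad is induced by DNA damage. ENSMUSG00000120849 lies wholly within the span of another gene, so its level of 199 ± 7.77 TPM is uncertain. Gm10076 had 214, 229 and 296 TPM, and ENSMUSG00000121092 had the highest CV of the 10, 23.05%, beside 1.52% for ENSMUSG00000120992, the lowest.

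The samples were close to each other in most genes. Over 15903 genes, the biological coefficient of variation estimated by edgeR was 0.179. It is 1 value fitted to all these genes together, for the SD between samples relative to the mean, beyond counting noise. The median gene varied less, with a CV of TPM, counting noise included, of 11.6% over genes at 1 TPM or more in every sample. Among 8479 protein-coding genes with a mean of at least 10 TPM, the median CV of the TPM was 8.89%, 4867 genes or 57.4% had a CV under 10%, and 41 genes or 0.484% had a CV of 50% or more. Counts of the samples differed by more than counting noise for every pair, with a median chi-square per gene of 5.78 to 7.07, so none was a copy of another.

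The most variable genes belonged to few kinds. Cfd had the highest CV, 120%, followed by Ccl21a at 112%. The acute phase gene Hp, of haptoglobin, had 13.98, 21.8 and 75.5 TPM, Lrg1, another secreted acute phase gene, 10.9, 4.11 and 19.7 TPM, and Mmp9 was likewise highest in untreated 3. The regenerating islet genes Reg1, Reg3b and Reg3g, secreted lectins of stressed pancreas and gut, had 67.8, 38.3 and 10.8 TPM, 58.01, 25.4 and 7.14 TPM and 21.2, 11.03 and 2.83 TPM, and with Dmbt1, a mucosal defence gene at 90.8, 45.3 and 12.6 TPM, they were highest in untreated 1 and lowest in untreated 3. Reg genes are paralogs, and Dmbt1 lies within the span of another gene, so their levels are uncertain.

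Of the remaining genes, Gzmg measured 22.96, 56.2 and 7.23 TPM and Gzmf belongs to the same cluster, both highest in untreated 2. Nkg7 and Ccl5, of cytotoxic cells, were highest in untreated 1, as was 2310057J18Rik at 18.8, 7.57 and 5.15 TPM. Of the 15 most variable genes, 9 were highest in untreated 1, 2 in untreated 2 and 4 in untreated 3, and 9 were lowest in untreated 3. Their CV ran between 66.7 and 120%.

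**Figure D5:**
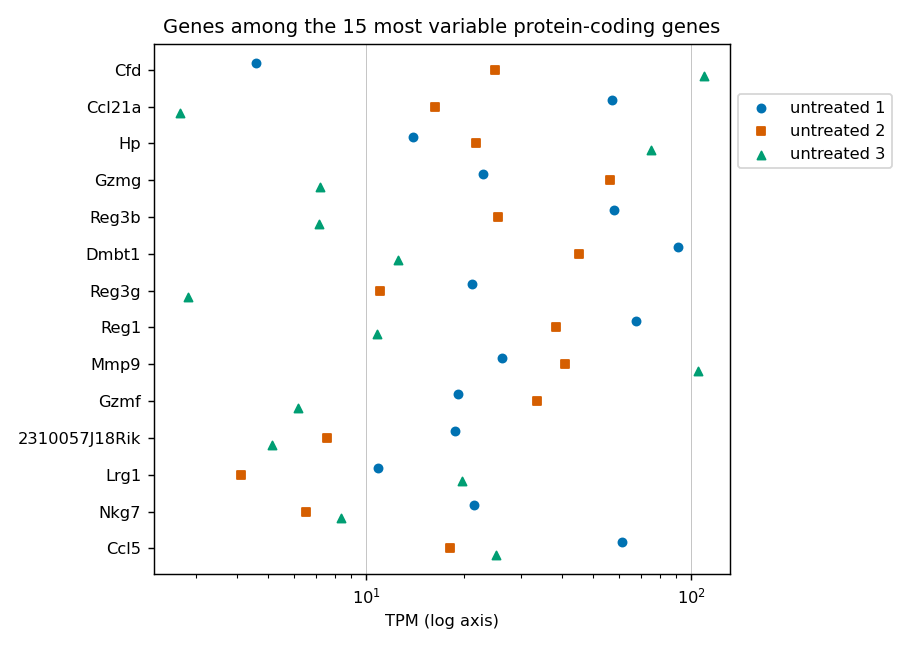
TPM of genes among the 15 protein-coding genes with the highest CV among those with a mean of at least 10 TPM. The x axis is a log scale and each symbol is 1 untreated sample. The samples stand apart from each other within most genes, with Cfd from 4.59 TPM in untreated 1 to 109 TPM in untreated 3 and Ccl21a from 2.68 TPM in untreated 3 to 57.3 TPM in untreated 1.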

How the data were processed

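The material for bulk RNA sequencing was total RNA of whole tumours, homogenised in liquid nitrogen and extracted with TRIzol per the labels' protocols. The authors deposited raw read counts per gene and library in the table of anti-IL-1R1 against untreated tumours, with gene length in bases and biotype, per the file headers, and the 3 untreated columns are used here. The deposited FPKM values, which the authors scaled by gene length and library total, entered only as an alternative. Per the submitters' processing notes, the build was mm39 and DESeq2 was among the tools, with no version for either. Which aligner, counter and annotation were used, whether strand was used and how gene length was defined is not given in the sources used here. The table lists only genes with at least 2 reads over its 6 libraries. Of the deposited per-sample values, 42 columns were not used. The untreated counts of 27685 genes also stand in a second deposited table, with 0 mismatches.

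TPM was computed in Python 3.11.15 from counts and lengths over all 29098 genes of a sample. At 35.4 to 53.3 M reads in genes per sample, a gene without reads is given the level that 3 reads would have as an upper limit, which covers counting error only. The biological coefficient of variation was estimated with edgeR 4.0.16 in R 4.3.3 (TMM factors, genes kept by filterByExpr, no group term), and the step was tested on simulated data. There was no comparison and no test. Promoter sequences came from a RefSeq table of GRCm38.p6.

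Members and lists were chosen with earlier results of these data known. Named were the 30 most abundant genes, the 4 highest members, the lowest member and members without reads of each list, all members of the IL-1, CD40 and sex-linked lists, the 10 most abundant lncRNA genes and the 15 most variable protein-coding genes. Some genes under this rule, and 1 list, are not reported here. Other genes were named after their values were seen. Alternatives were other sets of genes in the total, CPM, FPKM, the second table, TMM factors, other levels and list summaries, and leaving out each sample.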

Additional observations from a re-analysis of the deposited data

How the results depend on the processing

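Level statements depended on whether gene length was used and on what the total held. Against 31.1%, the 100 most abundant genes held 25.9% of TPM without ribosomal RNA and mitochondrial genes, 29.5% over protein-coding genes only and 21.1% of CPM. CPM put 50% of the total in 887 genes instead of 415. The level of a named gene was, in the median over the 30 most abundant, 1.097 times its main value without ribosomal RNA and mitochondrial genes, 1.13 times over protein-coding genes only and 0.42 times in CPM. The order of the 40 lists by summed TPM had a Spearman rho with the main order of 0.960 in CPM, 0.896 by the mean of log2(TPM + 1), 0.835 by the median member and 0.968 without each list's leading gene, where the lowest rho of a single sample was 0.991. The biological coefficient of variation was 0.283 without the filter on low counts, against 0.179. Genes at 1 TPM or more in every sample numbered 14250, against 15762 at 0.5 TPM, 10552 at 5 TPM and 15884 by the mean.

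Leaving out each sample gave 14618 to 14751 genes at 1 TPM or more, 30.6 to 31.5% of TPM in the 100 most abundant genes, 409 to 425 genes with 50% of it, a rho of the list order of 0.996 to 0.998, a median ratio of a named gene of 0.972 to 1.02 and a coefficient of 0.165 to 0.192. Rescaled FPKM, the second table and TMM factors moved 0 of 30 genes and 0 of 40 lists by more than 1 SD between samples. The first of these settings reuse the same counts, and the TMM factors were 1.004, 1.011 and 0.985, so little movement was possible. By the same measure, CPM moved 26 of 30 genes and 35 of 40 lists. Protein-coding genes only moved 21 of 28 genes and 23 of 40 lists. Leaving out ribosomal RNA and mitochondrial genes moved 15 of 26 genes and 20 of 40 lists. No paired analysis was possible because a single group was described and no test was made. With 3 samples of 1 group, no difference between samples can be tested, and levels of genes with few reads rest on counting error.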

Other observations

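Gene families outside the lists were read after their values were seen. Among genes that remodel and bind matrix, Mmp14, which encodes a membrane-bound collagenase, was the most abundant of 20 metalloproteinase genes, at 444, 455 and 484 TPM, and Mmp13, a secreted collagenase gene, measured 90.4, 102 and 143 TPM. Itgb1, the common integrin beta 1 chain, led the genes whose symbols begin with Itga or Itgb, at 897, 1054 and 985 TPM. Of these 31 genes, which can include some that are not integrin chains, 25 reached 1 TPM in every sample. Laminin genes of basement membranes were even, with sums of 669.95, 677 and 672 TPM, led by Lama5 at 203 ± 12.2 TPM. Cathepsin genes, of lysosomal proteases, summed to 2729, 2618 and 2701 TPM, with Ctsd at 517 ± 22.5 TPM and Ctsb at 483 ± 7.80 TPM.

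Other families had members that set samples apart. Among galectins, Lgals2 stood at 1094, 1356 and 624 TPM, lowest in untreated 3 like Lgals4, while Lgals3 had 989.6, 761 and 767 TPM. Igfbp5, which binds insulin-like growth factors, had 150.2, 101 and 47.2 TPM, and its relative Igfbp3 615, 655 and 711 TPM. The claudin genes were led by Cldn2, of leaky epithelia, at 307, 354 and 289.8 TPM, and by Cldn6, an embryonic claudin, at 66.7, 77.3 and 115 TPM, well above Cldn3, Cldn4 and Cldn7. Of 12 annexin genes all reached 1 TPM in every sample, Anxa8 measured 509, 709.5 and 481 TPM and Anxa13 161, 189 and 93.8 TPM. Interleukin genes were taken by symbols of Il, a number and at most a single letter. This takes in Il21r but leaves out receptor genes such as Il1r1 and Il1rap. Among these 30 genes, the most abundant was Il34, a ligand of the CSF-1 receptor, at 69.8, 72.4 and 91.2 TPM. Il10, an anti-inflammatory cytokine gene, had 2.02, 5.78 and 12.8 TPM, and Il11 7.71, 7.79 and 19.7 TPM, both highest in untreated 3. The 49 immunoglobulin variable genes summed to 4.79, 4.64 and 42.9 TPM, highest in untreated 3 like the other B cell genes.

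Short annotated genes carried high TPM from few reads. ENSMUSG00002076173, 57 bases long and annotated as a miRNA, stood at 1206, 897 and 2006 TPM from 1169, 574 and 1374 reads, and it lies within the span of Zc3h7a. Its order of samples was that of Rn18s-rs5.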
